A study of Mus musculus with 4 samples.

Results

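Doc2b and 9 further genes of calcium-triggered vesicle fusion were followed in adult mouse heart muscle cells after 2 days of doxycycline or PBS. The genes are Doc2b and its relative Doc2a, the synaptotagmins Syt1, Syt7 and Syt11, the plasma membrane fusion machinery Stx4a, Snap23 and Stxbp3, and the vesicle proteins Vamp2 and Vamp5. They are 10 of the 20886 genes named on the array and were read by 15 probes. Doc2b was chosen by its large difference between doxycycline and control on these same arrays, and the others for their part in the same machinery, with those results known. The differences of the 10 genes are therefore given as a description and carry no test.

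The cells came from 10-week-old male mice bred by crossing a line with Cre under the αMHC promoter, which is active in heart muscle cells, with a line carrying the tetO-controlled OSKM factors of Yamanaka (Pou5f1, Sox2, Klf4 and Myc). Control mice had the same alleles and received PBS for 2 days, and the other mice received intraperitoneal doxycycline for 2 days to switch on the factors. The labels name no transactivator, the protein through which doxycycline acts on tetO, and levels of the factors are not given here. Each group has 2 Cy3-labelled 1-colour arrays, all 4 on 1 slide, with the control arrays at positions 1 and 2 and the doxycycline arrays at positions 3 and 4, so position and treatment cannot be told apart. No array came from mice given doxycycline without the factors, so drug and factors cannot be told apart. The labels do not say how many animals stand behind an array, nor that the 2 arrays of a group came from different animals, so the spread between them may be technical.

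Vesicles fuse with the plasma membrane when a SNARE protein on the vesicle, a VAMP, zippers with a syntaxin and a SNAP-25 family protein on the target membrane. Sec1/Munc18 proteins hold syntaxins and guide the assembly, and proteins with paired C2 domains, the synaptotagmins and DOC2 proteins, couple fusion to calcium. In muscle and fat cells syntaxin 4, SNAP23, Munc18c and VAMP2 form the set that inserts the glucose transporter GLUT4 into the surface, and DOC2B is known to bind this set.

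Levels are log2 processed signals from which each array's 75th percentile was subtracted. That percentile lay between 112 and 248 signal units, and the scanner software flagged between 50.6% and 51.8% of spots as well above background. Control array 1 stood apart in technical quality, with repeated spots varying by 10.99% against 4.0% to 4.8% on the others. All 8 heart muscle markers checked (Myh6, Actc1, Tnnt2, Tnni3, Myl2, Ryr2, Pln and Ttn) were well above background on every array. Control array 1 also differed from control array 2 in marker levels. The median of control array 1 minus control array 2 was -0.95 for heart muscle and -0.17 for smooth muscle markers. For the other marker lists described below it lay between 0.65 (neuron) and 1.69 (macrophage). The part of this in the values without control array 1 was not tested. Over all 12542 genes that could be tested, limma called 0 at an adjusted p under 0.05 (0%), 886 had an unadjusted p under 0.05, and the median difference was -0.06. Levels of different probes are not compared, since probes differ in how strongly they bind.

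Doc2b, a soluble calcium sensor that promotes the fusion of docked vesicles, was the 1 member gene with a large difference. Its spots gave processed signals of 3.23 (control array 1), 5.49 (control array 2), 103 (doxycycline array 1) and 69.6 (doxycycline array 2), with software errors of 1.87, 2.22, 10.6 and 7.37 for the same spots in that order. Both doxycycline values were well above background and neither control value was, so the groups did not overlap. The lowest spot signals that counted as well above background ranged from 8.71 to 11.9 across the arrays, above both control readings of Doc2b.

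On the log2 scale Doc2b read -5.12 and -4.96 in control against -1.27 and -1.47 after doxycycline, a difference of 3.67 ± 0.40 (SE, n = 2 per group). The 2 arrays of a group lay within 0.20 of each other. Because the control values were below background they set only a bound, for which each control array counted as the lowest level well above background on it, or the probe's level if that was higher. On that basis Doc2b was at least 5.56-fold higher after doxycycline. The bound holds under that convention only, since a probe can lie above that lowest level without being flagged. A Stxbp3 probe did so, at -2.95 and -3.91 in control. The bound was 5.96-fold with doxycycline array 1 alone and 5.19-fold with doxycycline array 2 alone. It was 4.99-fold against control array 1 alone and 6.19-fold against control array 2 alone.

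The size of the Doc2b difference depended on how background was handled. With normexp correction and an offset of 50, which adds more to each spot than the control signals of Doc2b, Doc2b read -1.37 and -1.70 in control against -0.75 and -0.85 after doxycycline, a difference of 0.73. Both doxycycline arrays still exceeded both control arrays. Detection on both doxycycline arrays and no control array was found for 119 of the 12542 genes, and the opposite pattern for 98. A bound could be given for 108 of the 119, with a median of 1.50-fold, and 6 of them, Doc2b included, had a bound at least as large as that of Doc2b. These counts use the contrast that chose the gene and are a description.

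**Figure D1:**
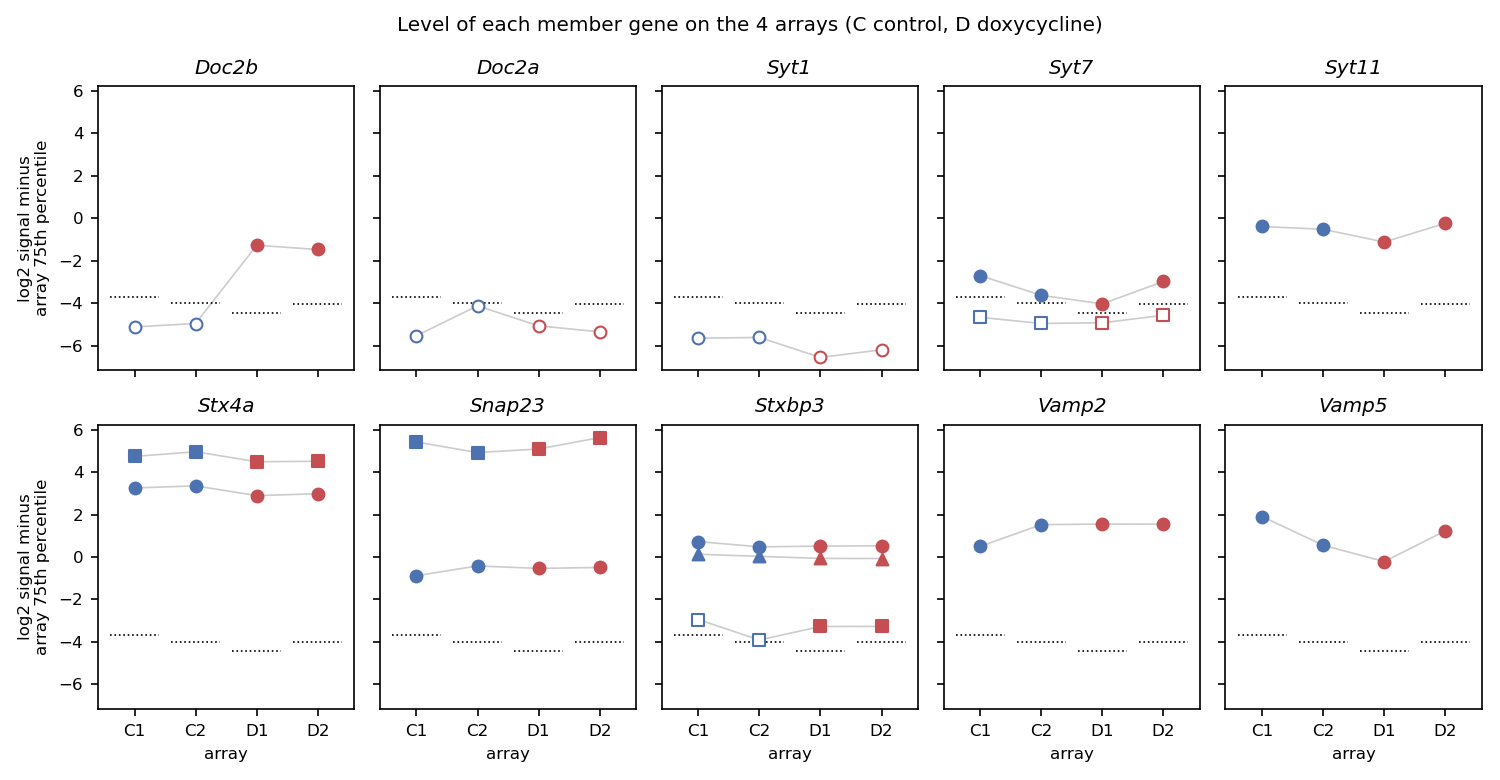
Log2 signal minus the array's 75th percentile (vertical axis) for every probe of the 10 genes on control (C1, C2, blue) and doxycycline (D1, D2, red) arrays. Each marker shape is a probe, filled where well above background, the dotted bars are the lowest level well above background on that array, and grey lines only join values of 1 probe. Doc2b is open in control and filled at -1.27 and -1.47 after doxycycline, whereas Doc2a and Syt1 are open throughout.

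The closest relative of Doc2b did not share this pattern. Doc2a, which is best known from brain synapses, read -5.54 and -4.13 in control against -5.07 and -5.35 after doxycycline, and no array had it well above background. Doc2g, the other DOC2 gene and one of the additional vesicle genes described below, was well above background on every array. It read 2.74 and 4.20 in control against 2.48 and 2.53 after doxycycline, a difference of -0.97 ± 0.56 (SE, limma adjusted p = 0.848). Both doxycycline arrays lay below both control arrays for Doc2g, and the difference was -0.24 without control array 2 and -1.70 without control array 1.

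Of the synaptotagmins among the 10 genes, Syt1 was below background and Syt7 and Syt11 overlapped between the groups. Syt1, the fast calcium sensor of synaptic release, read -5.65 and -5.62 in control against -6.56 and -6.19 after doxycycline, not well above background on any array. All 4 values lay where signals are not told from background, so the lower readings after doxycycline have no fold.

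Syt7, a slower calcium sensor of high affinity that also acts in lysosome exocytosis, was well above background on all 4 arrays with 1 probe. That probe read -2.70 and -3.63 in control against -4.03 and -2.98 after doxycycline, a difference of -0.34 ± 0.55 (SE, n = 2 per group; 95% interval -1.65 to 0.97). The groups overlapped, with doxycycline array 1 lowest and doxycycline array 2 between the controls. The sign turned without control array 1 (0.13), without doxycycline array 1 (0.19) and with scaling to the median (0.01). That scaling raised the median of all genes by 0.35, and relative to this shift the difference was again -0.34. A second Syt7 probe was below the detection flag throughout and read between -4.96 and -4.57.

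Syt11, a synaptotagmin that does not bind calcium and is known from the control of endocytosis, was well above background on all 4 arrays. It read -0.39 and -0.52 in control against -1.12 and -0.24 after doxycycline, a difference of -0.22 ± 0.46 (SE, 95% interval -1.32 to 0.87). Doxycycline array 1 was the low one and doxycycline array 2 the highest of the 4, so the groups overlapped. Without doxycycline array 1 the difference was 0.22, and with scaling to the median it was 0.12. Relative to the shift of 0.35 that this scaling gave all genes, the difference was again -0.22.

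The target membrane partners of Doc2b differed from control by less than their SE. Stx4a, which encodes syntaxin 4, had 2 probes, both well above background on every array. The brighter read 4.74 and 4.96 in control against 4.49 and 4.51 after doxycycline, a difference of -0.35 ± 0.39 (SE, n = 2 per group; 95% interval -1.29 to 0.59). The other read 3.26 and 3.35 in control against 2.89 and 2.98 after doxycycline, a difference of -0.37 ± 0.39. Both Stx4a probes were lower on both doxycycline arrays by similar amounts, and the arrays of a group differed by at most 0.22. With scaling to the median the difference of the brighter probe was -0.00. That scaling raised the median of all genes by 0.35, and relative to this shift the difference was again -0.35.

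Snap23, the SNAP-25 family partner of syntaxin 4 outside neurons, was well above background with 2 probes. The brighter read 5.42 and 4.92 in control against 5.09 and 5.63 after doxycycline, a difference of 0.19 ± 0.44 (SE, 95% interval -0.86 to 1.23). The other read -0.88 and -0.42 in control against -0.54 and -0.49 after doxycycline, a difference of 0.14 ± 0.41. The groups overlapped for both probes. The sign of the brighter probe turned without control array 2 (-0.06) or doxycycline array 2 (-0.08), and that of the other without control array 1 (-0.09).

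Stxbp3, which encodes Munc18c, the Sec1/Munc18 protein that binds syntaxin 4, had 3 probes. The brightest read 0.73 and 0.48 in control against 0.51 and 0.53 after doxycycline, a difference of -0.08 ± 0.39 (SE, 95% interval -1.02 to 0.86). Its groups overlapped, and the sign turned without control array 1 (0.04) and with scaling to the median (0.27). Relative to the shift of 0.35 that this scaling gave all genes, the difference was again -0.08. The next probe read 0.13 and 0.03 in control against -0.07 and -0.07 after doxycycline, a difference of -0.15 ± 0.39 with no overlap. The dimmest was well above background on the doxycycline arrays only, with a difference of 0.16 ± 0.47. Its control readings lay above the lowest level well above background on those arrays, so its bound is only the fold of the readings themselves, 1.12. Its own readings, -2.95 and -3.91 in control against -3.28 and -3.27 after doxycycline, overlapped, and the brighter probes were not higher.

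For both vesicle SNAREs the control arrays differed more from each other than the groups did. Vamp2, the SNARE of synaptic and GLUT4 vesicles, read 0.50 and 1.53 in control against 1.55 and 1.55 after doxycycline, a difference of 0.54 ± 0.48 (SE, 95% interval -0.61 to 1.68). Its value on control array 1 was the low one, and the other 3 arrays lay close together. Without control array 1 the difference was 0.02, and without control array 2 it was 1.05. Heart muscle markers also had their lower control reading mostly on array 1, the median of control array 1 minus control array 2 being -0.95. Their summed levels were 11.63 and 11.76 in control against 11.05 and 11.42 after doxycycline. That sum follows its brightest probes, such as that of Myh6, which read 10.28 and 9.73 in control. The median difference of the 8 markers was 0.05, with 5 of them above control. The part of control array 1 in the Vamp2 difference was not tested, since leaving out either control array leaves 1 control array.

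Vamp5, a SNARE of muscle and endothelial cells that is mostly found at the plasma membrane, read 1.91 and 0.56 in control against -0.22 and 1.23 after doxycycline. Its difference was -0.72 ± 0.67 (SE, 95% interval -2.32 to 0.87), and the groups overlapped. Control array 1 and doxycycline array 2 were the high ones. The difference was -0.05 without control array 1 and 0.00 without doxycycline array 1, against -1.40 and -1.45 without the other array of each group.

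**Figure D2:**
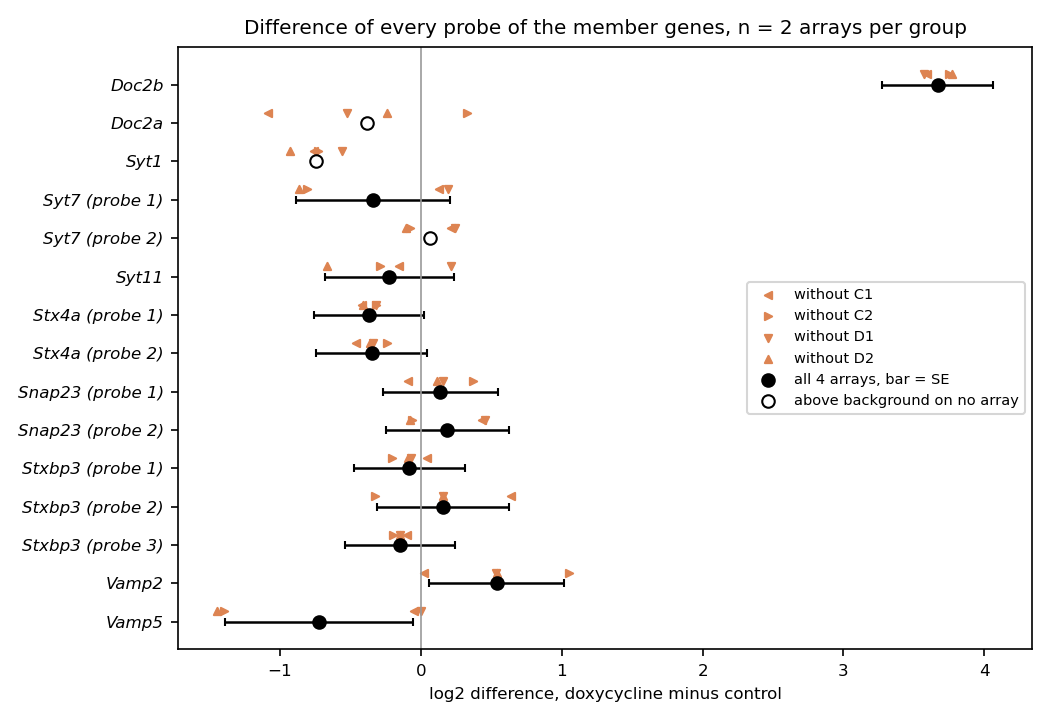
Log2 difference, doxycycline minus control (horizontal axis), for all 15 probes of the 10 genes, with the SE of the fit over single probes as bars and n = 2 arrays per group. Small orange symbols give the difference with 1 array left out, and open circles are probes above background on no array. Doc2b lies at 3.67 with all symbols beside it, while the symbols of Vamp5 reach from -1.45 to 0.00.

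Of the 10 genes, 8 were well above background on at least 2 arrays and entered the fit over all genes. Doc2b entered only through its doxycycline arrays. For Doc2b and Vamp2 the lower doxycycline value was above the higher control value, which held for 14.5% of all genes tested. Both lay below both control arrays for Stx4a, where 20.8% of all genes did. At an unadjusted p under 0.05 with a log2 difference of at least 1, 3.14% of all genes were higher and 3.82% lower, and Doc2b was the 1 member gene past that line. As the same contrast chose Doc2b, nothing is read from these shares.

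The rest of the machinery was read from 8 lists with 126 further genes on the array, of which 90 entered the fit, 80 of them well above background on all 4 arrays. None of the 90 passed limma at an adjusted p under 0.05, and 3 had an unadjusted p under 0.05, 1 higher and 2 lower. Their median difference was -0.06, the same as that of all genes. The absolute difference was under 0.5 for 72.2% of them, against 63.8% of all genes, and at least 1 for 7.78%, against 12.4%. The doxycycline arrays both exceeded the controls for 11 (12.2%) and lay below both for 17 (18.9%), near the 14.5% and 20.8% of all genes. Of the 31 list genes under the naming rule, 25 moved by over 1.5 times or turned in sign without 1 of the arrays, 8 of them in sign. Of the 36 that did not enter the fit, 31 were not well above background on any array, among them the synaptic genes Syt2, Syt4, Cplx1, Rims1, Rims2 and Unc13a and the granule proteins Chga and Scg2.

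Of the other proteins with C2 domains, 11 were tested and none passed limma at an adjusted p under 0.05. A difference below 0 was read for 9, and 5 had both doxycycline arrays below both control arrays and 0 above, where 20.8% and 14.5% of all genes did, with a median of -0.14. Syt3, a synaptotagmin of the plasma membrane, read -2.96 and -1.90 in control against -4.65 and -3.68 after doxycycline, a difference of -1.73 ± 0.55 (SE, limma adjusted p = 0.524). Syt10, known from secretion of insulin-like growth factor in neurons, read -1.18 and -3.07 in control against -4.14 and -3.55 after doxycycline, a difference of -1.72 ± 0.67 (adjusted p = 0.662). Control array 1 stood far above control array 2 for Syt10, and without it the difference was -0.78. Syt6 differed by -0.62 ± 0.48, or -0.15 without control array 1. Dysferlin, Dysf, which reseals the muscle membrane and is named after its values were seen, read 3.76 and 3.76 in control against 3.71 and 3.56 after doxycycline.

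The syntaxins split evenly, with 6 of 13 above and 7 below control and a median of -0.01. Stx12, of endosomes, differed by 0.99 ± 0.61 (SE, limma adjusted p = 0.865), or 0.16 without control array 1, and Stx3 by 0.57 ± 0.41 (adjusted p = 0.894). Stx11, a syntaxin of immune cells, read -3.06 and -4.46 in control against -0.47 and -3.81 after doxycycline, a difference of 1.62 ± 1.06 (adjusted p = 0.880). Only doxycycline array 1 was high for Stx11. It was called when doxycycline array 2 was left out (3.29, adjusted p = 0.014), a fit in which the lone doxycycline array, the high one, is assumed to vary like the controls.

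Among the SNAP-25 family and vesicle SNAREs, 7 of 10 were above control, with a median of 0.23 that was -0.04 without control array 1. Vamp1 differed by 0.57 ± 0.51 (SE, limma adjusted p = 0.910), or -0.01 without control array 1, Vamp4 by 0.36 ± 0.39, Vamp8 by 0.37 ± 0.43 and Vamp3 by -0.33 ± 0.39. The Golgi and early secretory SNAREs had differences between -0.24 for Vti1a and 0.16, with a median of 0.03 that was -0.22 without control array 1. Gosr1 differed by -0.20 ± 0.39, Bet1l by 0.16 ± 0.41 and Use1 by 0.15 ± 0.40.

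Of the 20 Sec1/Munc18 proteins and priming and disassembly factors tested, 15 had a difference below 0 and 5 above, with a median of -0.25. The secretory vesicle GTPase gene Rab3a read 3.0 and 3.97 in control against 1.99 and 2.85 after doxycycline, a difference of -1.06 ± 0.53 (SE, limma adjusted p = 0.795). Stxbp6, whose product competes for syntaxins, differed by -1.10 ± 0.56 (adjusted p = 0.804) and Stxbp4 by -0.66 ± 0.62. The list's median was 0.02 without control array 1, while Rab3a and Stxbp6 stood at -1.55 and -0.60. Nsf, the ATPase that takes spent SNARE bundles apart and is named after its values were seen, read 0.02 and -0.08 in control against 0.05 and -0.12 after doxycycline.

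GLUT4 traffic genes, the setting in which the partners of Doc2b are best known in muscle, had a median difference of 0.01, or -0.24 without control array 1, with 8 of 16 above control. Aspscr1, a tether of GLUT4 vesicles, differed by 0.52 ± 0.42 (SE, limma adjusted p = 0.899), Tbc1d1 by -0.62 ± 0.60 and Tbc1d4 by 0.31 ± 0.51, the last 2 being Rab GTPase brakes under insulin control. Slc2a4, the GLUT4 gene itself and named after its values were seen, read 5.22 and 6.50 in control against 5.51 and 5.62 after doxycycline, with both doxycycline arrays between the controls.

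The exocyst, which tethers vesicles before fusion, had a median of -0.15 over its 9 genes. Exoc1 differed by -0.59 ± 0.45 (SE, limma adjusted p = 0.896), Exoc8 by -0.68 ± 0.55, Exoc7 by 0.48 ± 0.40 and Exoc4 by 0.42 ± 0.41. Of the 10 genes for secretory granule cargo and processing, 3 entered the fit. Pam, the peptide-amidating enzyme of atrial granules, differed by 1.14 ± 0.49 (adjusted p = 0.729), or 0.60 without control array 1. Chgb, a granin, was above background on the doxycycline arrays only and read -5.63 and -4.08 in control against -3.99 and -3.79 after doxycycline, too close to the lowest detectable level for a fold. The processing enzyme gene Cpe differed by 0.25 ± 0.46.

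**Figure D3:**
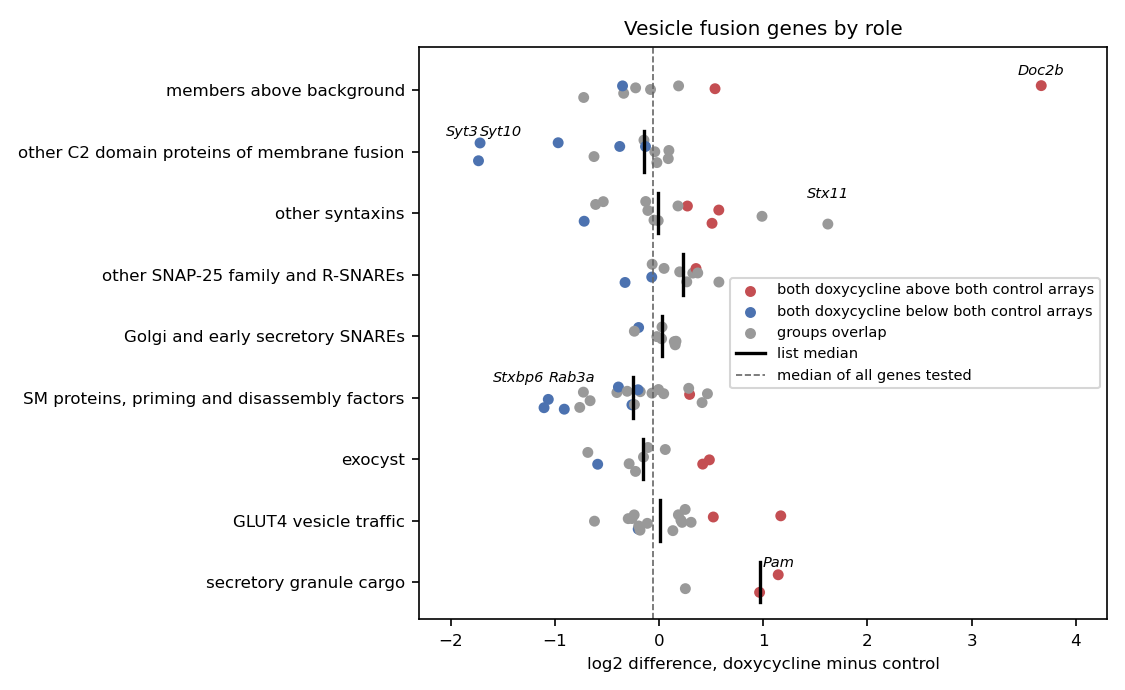
Log2 difference, doxycycline minus control (horizontal axis), of each vesicle fusion gene that entered the fit, 1 point per gene, by role. Red and blue mark genes whose doxycycline arrays both lie above or below both control arrays, black bars are list medians, and the dashed line is the median of all genes at -0.06. Doc2b lies at 3.67, and the other genes lie between -1.73 and 1.62.

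The genes with profiles most like that of Doc2b were found by the root mean square difference between the 4 levels of a gene and those of Doc2b, each set to its own mean. Over the 12542 genes the 5 nearest were Cdo1 (0.27), which oxidises cysteine, Acot1 (0.30), an acyl-CoA thioesterase, Eppin (0.32), a protease inhibitor best known from the male tract, Myh7 (0.34), the slow myosin heavy chain, and Clca3a2 (0.36). Like Doc2b, Eppin and Clca3a2 were well above background on the doxycycline arrays only. Eppin read -5.79 and -6.28 in control against -2.08 and -2.88 after doxycycline, and Clca3a2 read -4.67 and -5.30 in control against -1.72 and -1.38 after doxycycline. For Syt7 the 5 nearest were Cdk19 (0.03), Zfp946 (0.04), Ro60 (0.04), Zfhx3 (0.05) and Smok3b (0.05). The ranking for Doc2b uses the contrast that chose it and control readings below background, so the order of its neighbours rests in part on readings without a level. With 4 arrays many genes can share a profile, and the likeness is a description of these arrays.

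**Figure D4:**
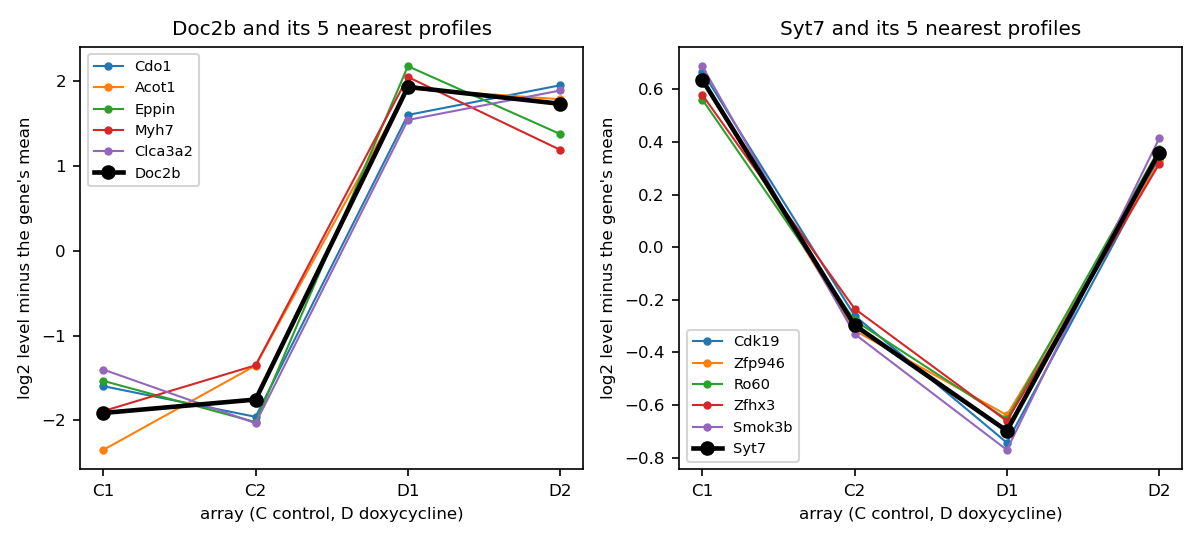
Log2 level minus the gene's own mean (vertical axis) on control (C1, C2) and doxycycline (D1, D2) arrays for Doc2b and Syt7 in black and the 5 genes nearest to each in colour. The Doc2b group is high on both doxycycline arrays, whereas the Syt7 group is high on C1 and D2 and low on D1; lines only join values of 1 gene.

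Isolated heart muscle cells can hold other cells, and a bulk array cannot tell fewer cells of a type from less RNA per cell. Doc2b is also known from neurons and fat cells. Of 10 neuron markers (Snap25, Syn1, Tubb3, Stmn2, Uchl1, Gap43, Prph, Th, Dbh and Elavl4), 0 were higher on both doxycycline arrays than on both controls and 5 were lower, where 14.5% and 20.8% of all genes were. Their summed log2 level was 5.56 and 5.14 in control against 4.90 and 5.92 after doxycycline. That sum follows its brightest probe, that of Snap25, the neuronal SNAP-25 gene, which read 5.28 and 4.70 in control against 4.78 and 5.84 after doxycycline. Well above background on all 4 arrays were Snap25, Stmn2, Th, Dbh and Elavl4. Uchl1 and Syn1 were so on 1 control array and both doxycycline arrays, Gap43 and Tubb3 on 1 control array alone, and Prph on both controls and 1 doxycycline array.

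Of 6 fat cell markers (Adipoq, Plin1, Cidec, Retn, Lep and Cfd), 3 were higher on both doxycycline arrays and 1, Lep, was lower, where 14.5% and 20.8% of all genes were, and Lep has no level above background. Their summed log2 level was -1.0 and -2.08 in control against -0.20 and -0.02 after doxycycline. Cfd, which encodes adipsin, read -2.68 and -3.21 in control against -0.79 and -0.75 after doxycycline, and was well above background on all 4 arrays. Of the other higher ones, Cidec was so on doxycycline array 2 alone, and Retn on every array but control array 2. The defining fat cell genes Adipoq, Plin1 and Lep were not well above background on any array. Whether the higher Cfd, Cidec and Retn readings have a part in the Doc2b difference was not tested.

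Vamp5 and Syt7 shared an order of the 4 arrays. Both genes were highest on control array 1, then on doxycycline array 2, control array 2 and doxycycline array 1. The 8 endothelial markers (Pecam1, Cdh5, Kdr, Tek, Tie1, Vwf, Egfl7 and Cldn5), all well above background on every array, had summed log2 levels of 8.04 and 6.33 in control against 6.16 and 6.73 after doxycycline. That sum has the order of Vamp5 and Syt7, but it follows its brightest probe, that of Egfl7, and of the 8 markers only Egfl7 and Kdr show the order. In the other 6 control array 2 was lowest. The Schwann cell genes named after their values were seen, Pmp22 and Sox10, also had the order, Pmp22 with 4.07 and 2.38 in control against 1.85 and 2.99 after doxycycline and Sox10 with -0.96 and -1.97 against -2.66 and -1.76. The part of these cells in the Vamp5 and Syt7 values was not tested.

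Other marker lists were read in the same way, without a test. Readings were lower on both doxycycline arrays than on both controls for 5 of 8 fibroblast, 4 of 7 macrophage, 5 of 6 mast cell and 2 of 6 smooth muscle markers, and higher for 0 of each, where 20.8% of all genes were lower and 14.5% higher. The mast cell count includes Ms4a2, which no array had well above background. Of 7 neutrophil and platelet markers 2 were higher and 1 was lower, and S100a8 and S100a9, the higher ones, are neutrophil genes. The list's other neutrophil genes, Ngp and Camp, overlapped between the groups. Camp differed by -0.34, and Ngp was well above background on doxycycline array 1 alone. The summed log2 level of the neutrophil and platelet list was 2.83 and 1.57 in control against 4.28 and 2.66 after doxycycline. That of the fibroblast list was 7.75 and 6.06 against 6.27 and 6.37, so both sums overlapped. The fibroblast sum follows its brightest probe, that of Dcn, which read 7.40 and 5.73 in control against 6.22 and 6.29 after doxycycline. The median difference of the 8 fibroblast markers was -2.71, with 0 of them above control. The macrophage sums were 4.38 and 2.85 against 3.04 and 2.77, which also overlapped, the mast cell sums 0.77 and -0.36 against -1.87 and -1.24, and the smooth muscle sums 6.0 and 6.41 against 5.27 and 4.87. Their part in the Doc2b and Stx4a differences was not tested.

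**Figure D5:**
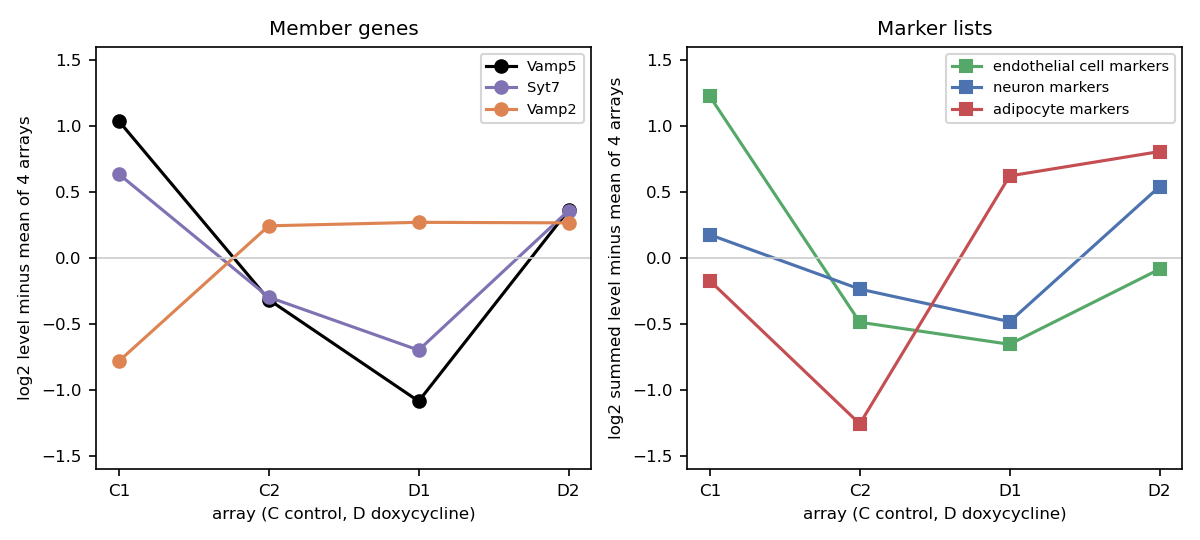
Log2 level of Vamp5, Syt7 and Vamp2 (left) and log2 summed level of 3 marker lists (right), each minus its mean over the 4 arrays (vertical axes), on control (C1, C2) and doxycycline (D1, D2) arrays. Vamp5, Syt7 and the endothelial list are highest on C1 and lowest on D1, whereas Vamp2 is low on C1 alone; lines only join values of 1 gene or list.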

How the data were processed

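Spot intensity was read by the authors from Cy3 scans with Agilent Feature Extraction 10.7.1.1, per the file headers. The processed intensity they deposited is on a linear scale, corrected for background within an array and not scaled between arrays. The files also hold median spot and background intensity, and other columns per the file headers, the flags for spots well above background, saturated (0 spots) or outlying. Further steps are not given in these sources.

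Accessions were named through a RefSeq table of GRCm38.p6, used for names only, because the design build is mm9. In all, 27508 of 39429 probes were named. After log2 and subtraction of the array's 75th percentile over non-control spots, outlier spots were dropped and repeated spots averaged. The brightest probe of a gene was tested where at least 2 of 4 arrays had it well above background. A probe with repeated spots counted as above background if at least 0.5 of them were. Differences were fitted with limma 3.58.1 in R 4.3.3 (lmFit and eBayes, two-sided, 4.69 prior and 2 residual degrees of freedom) and adjusted by Benjamini-Hochberg over all genes tested. Every probe of the 10 genes is given, with SEs of second probes from a fit over single probes. A permutation test of 2 arrays against 2 cannot give a p below 0.333. The steps were tested on simulated data. The number of arrays limits the precision, and columns of other series numbered 0. Plots were made in Python 3.11.15 (matplotlib 3.10.9).

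The 10 genes and all lists were chosen with earlier results of these data known. The naming rule takes every member gene, up to 4 genes per list with the smallest p, and the 5 nearest profiles to Doc2b and to Syt7, passing over clone names. Some genes it would name, and a marker list, are not reported here. Alternatives were normexp with an offset of 50, quantile and median scaling, no filter or detection on all 4 arrays, averaged probes of a gene or single probes, a robust variance or one with a trend, a block for the replicate number, leaving out each array, and an unadjusted p under 0.05 with a log2 difference of at least 1.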

Additional observations from a re-analysis of the deposited data

How the results depend on the processing

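The count of 0 genes called over all genes became 128 with scaling to the median, 295 with the replicate number as a block and 873 at an unadjusted p under 0.05 with a log2 difference of at least 1, and it ranged from 0 to 140 with 1 array left out. It was 0 in each of the other 8 alternatives. For the other vesicle fusion genes the count of 0 became 3 at the unadjusted threshold and ranged from 0 to 1 with 1 array left out, and it was 0 in the rest. The cause was not tested. In the block fit the prior degrees of freedom were infinite, so every gene had the same SE (0.61) and none had its own estimate of spread. The fits without doxycycline array 1 or 2 had 147 and 619 prior degrees of freedom, close to that setting. Calls from these fits rest on that assumption. The titles share replicate numbers but do not state a pairing, and same-numbered arrays did not deviate together (r = -0.09 over 12542 genes). In the 12 alternatives in which Doc2b could be fitted, its difference lay between 0.73 with normexp and 4.04 with quantile normalization. Doc2b has 1 probe, so averaging probes, testing single probes or omitting the filter could not move its 3.67. Nor could a variance option, the block or the unadjusted threshold, which leave the difference of every gene as it is. Doc2b could not be fitted with either doxycycline array left out or with detection required on all 4 arrays, since it was detected on too few. Where an alternative could move them, Stx4a and Vamp2 kept their direction, though at -0.00 with median scaling and 0.02 without control array 1. Syt7, Syt11, Snap23, Stxbp3 and Vamp5 changed sign in 1 to 3 alternatives each. For Syt7, Syt11 and Stxbp3 these include median scaling, and relative to its shift of 0.35 their sign did not change. Omitting the filter moved the median of all genes by -0.25. Signal over background limits what can be said of Doc2a, Syt1 and the control level of Doc2b.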

Other observations

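Sytl2, which encodes a Rab27-binding protein of secretory vesicles and is named after its values were seen, was well above background on 1 array alone. Its level was 1.13 on control array 2, against -4.13 on control array 1 and -6.39 and -5.94 on doxycycline arrays 1 and 2. Syt12 was well above background on doxycycline array 1 alone, where it read -3.87, against -5.69 and -6.06 in control and -5.23 on doxycycline array 2. Otof, the calcium sensor gene of inner hair cells, was detected on all 4 arrays and read 1.1 and 0.88 in control and 1.24 and 0.71 after doxycycline. Cplx2, which encodes a complexin that clamps SNARE bundles, was likewise detected throughout, at 5.78 and 4.95 in control and 4.40 and 5.86 after doxycycline, with control array 1 and doxycycline array 2 the high ones. These genes were picked for their readings, which carry no test.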
